A study of Mus musculus with 9 samples.

Results

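Dbp, Tef and Hlf are the proline and acidic amino acid-rich (PAR) basic leucine zipper activators through which the circadian clock drives many output genes. Nfil3 is a basic leucine zipper repressor that binds the same D-box DNA element. Ciart, Bhlhe40 and Bhlhe41 are repressors of the clock's own activators. These genes were taken by name from the deposited gene tables, which hold 49585 genes, and 7 of 7 were found. In the clock, the activators Clock and Arntl bind E-boxes and raise Dbp, Tef, Ciart, Bhlhe40, Bhlhe41 and the Per and Cry repressors, while Nfil3 is under the control of the Rev-erb repressors Nr1d1 and Nr1d2 and commonly peaks when Dbp is low. Skin cells carry such a clock, and in mouse skin it is known to interact with the hair growth cycle and with epidermal cell division.

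Skin RNA was sequenced in 9 libraries, 3 from wild-type C57BL/6 mice, 3 from wild-type BALB/c mice and 3 from mice labelled IL-6 -/- on a C57BL/6 strain. Mice arrived at 4 to 5 weeks of age and entered the experiment at 6 weeks. All groups were shaved on day 0, stayed untreated for 7 days and gave skin on day 8. The protocol lists 6 IL-6 knockout mice for 3 libraries and does not tie any library to a mouse, so each p-value rests on how much the libraries of a group vary, and that variation may be technical. The labels used here do not state at what time of day skin was taken. All of the genes described here are known to follow the time of day, so a difference between groups and a difference in sampling time cannot be told apart.

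Some facts of the whole series touch every value. Total exon reads ranged from 6083876 to 6882193 in C57BL/6, from 6115739 to 6242332 in BALB/c and from 3843953 to 4476346 in the libraries labelled IL-6 KO (called KO-labelled here). Il6, the targeted gene, had 6, 24 and 1 exon reads in the KO-labelled libraries. It had 2, 1 and 0 in C57BL/6 and 0, 2 and 0 in BALB/c, so its reads do not bear out the label. Most of the KO-labelled reads were in replicate 2, and replicate 3 lay within the range of the strains. Counts per gene do not show which part of the gene was read. Each direction given for the KO-labelled libraries rests on that label. Their deposited gene tables also differed in form. They lacked a biotype column, and the expression value equalled total exon reads for 100% of genes, against 88.7% to 89.5% in the strains. Whether the KO-labelled libraries were also counted differently is not given, and such a difference cannot be told apart from the group. Those libraries also differ in composition. The summed level of 12 skeletal muscle markers was 9699 to 10972 CPM (reads relative to library depth, scaled by TMM) in them, 60066 to 107140 CPM in C57BL/6 and 28713 to 60039 CPM in BALB/c. The summed level of 11 hair matrix and shaft markers was 9092 to 35207 CPM in them, 11.1 to 356 CPM in C57BL/6 and 6.15 to 21.7 CPM in BALB/c. In bulk skin, fewer cells of a type and less RNA per cell cannot be told apart.

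The promoter windows of the members are shown first, because the E-box is the element that the clock's activators bind. RefSeq windows (GRCm38.p6) running from 250 bases before to 50 bases after each start site were at hand for 6 of the 7 genes, all but Bhlhe40, in 7 windows. The E-box, spelled CACGTG and equal to its own reverse complement, occurred in the windows of 3 genes. Ciart held 3 matches, with first bases at −116, −58 and −44 from its start site. Tef held 1 at each of its 2 start sites, at −127 and −138. The match at −127 lies in bases annotated as exon, so its stretch is not printed below. Bhlhe41 held 1, at −153. Of all 32851 promoter windows, 7.15% held this motif. Among 20 core clock genes, 15 had a window, and 2 of these held it, Per1 and Cry1. The windows of Dbp, Hlf and Nfil3 held none, which says only that these letters are not in those windows.

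The stretches below are those that hold the E-boxes of Ciart, Bhlhe41 and the downstream start of Tef. Each is printed 5′ to 3′ on the gene's strand, stops before the first annotated exon base and has the E-boxes in capitals.
Ciart, chr3:95882252-95882478, minus strand: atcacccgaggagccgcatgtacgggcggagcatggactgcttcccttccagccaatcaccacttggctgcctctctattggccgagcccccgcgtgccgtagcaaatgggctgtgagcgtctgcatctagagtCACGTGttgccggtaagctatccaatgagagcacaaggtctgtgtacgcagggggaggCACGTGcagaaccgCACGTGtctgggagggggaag
Tef, chr15:81811164-81811413, plus strand: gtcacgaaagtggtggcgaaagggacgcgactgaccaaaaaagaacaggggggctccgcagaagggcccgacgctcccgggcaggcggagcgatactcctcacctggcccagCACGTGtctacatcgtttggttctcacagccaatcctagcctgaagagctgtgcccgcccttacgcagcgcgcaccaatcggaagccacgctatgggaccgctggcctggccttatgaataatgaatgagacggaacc
Bhlhe41, chr6:145865559-145865670, minus strand: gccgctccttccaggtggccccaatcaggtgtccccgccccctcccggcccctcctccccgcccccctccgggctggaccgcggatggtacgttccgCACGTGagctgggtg

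Other motifs were searched in the same windows, each on both strands. The D-box, the element bound by Dbp, Tef, Hlf and Nfil3, was searched as TTATGTAA and TTACGTAA and was found in 1.06% of all windows and in none of the 6 genes. Among 20 core clock genes, 15 of which had a window, 1 gene held it, the period gene Per3. The cAMP response element TGACGTCA, found in 1.79% of all windows, was present in Hlf at −9. The Rev-erb core site AGGTCA, found in 16.3% of all windows, was present in Nfil3 at −12. A match of letters is a description and not a binding site.

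**Figure D1:**
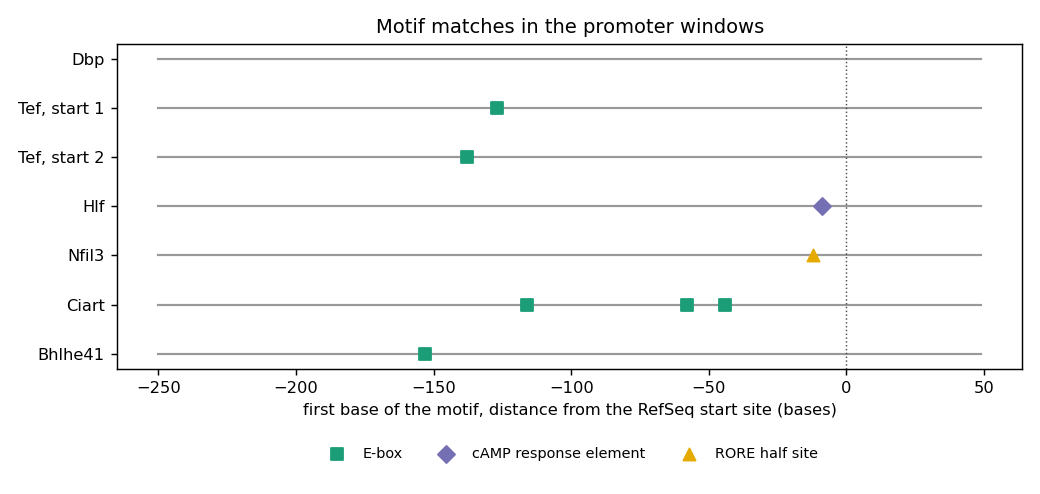
Motif matches in 7 RefSeq promoter windows of 6 genes, drawn by the distance in bases of the first motif base from the start site (horizontal axis), 1 line per window. The 3 E-boxes of Ciart lie within the last 116 bases before the start, and Tef and Bhlhe41 have 1 E-box per window.

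The levels of the 7 genes were compared with each other per exon length, as CPM per kilobase. The exon lengths were those of the deposited tables, and ranks between genes depend on them. For Bhlhe40 that length was 3272 bases, while GENCODE M21 annotates 4705 exon bases, which would give it a lower level. In C57BL/6, Dbp was highest at 70.8 ± 15.5 CPM per kilobase (SD, n = 3), followed by Tef at 53.9 ± 4.11 and Bhlhe40 at 36.2 ± 2.55. Hlf at 8.98 ± 1.25, Nfil3 at 6.33 ± 2.25, Bhlhe41 at 6.12 ± 1.27 and Ciart at 5.35 ± 1.5 CPM per kilobase formed a lower tier. In C57BL/6 the libraries of Dbp and Tef overlapped, as did those of each pair of neighbours in the lower tier, so neither order can be read within these pairs. BALB/c had the same 3 leading genes, at 71.0 ± 4.49, 52.0 ± 1.74 and 34.5 ± 5.81 CPM per kilobase. There the 3 libraries of each lay apart from those of the next. Nfil3 was last in BALB/c at 3.13 ± 0.0131 CPM per kilobase, below Bhlhe41 at 7.02 ± 1.18 with no overlap.

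The order was different in the KO-labelled libraries. By the deposited exon lengths, Bhlhe40 led at 23.8 ± 2.07 CPM per kilobase and Nfil3 stood second at 18.7 ± 5.93. Tef at 15.3 ± 2.91 and Dbp at 13.2 ± 2.37 came next. Each of these 4 overlapped its neighbour. Bhlhe41, Hlf and Ciart followed at 3.14 ± 0.722, 2.67 ± 1.36 and 2.38 ± 0.370 CPM per kilobase, and they overlapped too. The lower tier was therefore separate from the upper tier in each group, and Nfil3 was the member that stood in the lower tier of both strains and in the upper tier of the KO-labelled libraries.

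**Figure D2:**
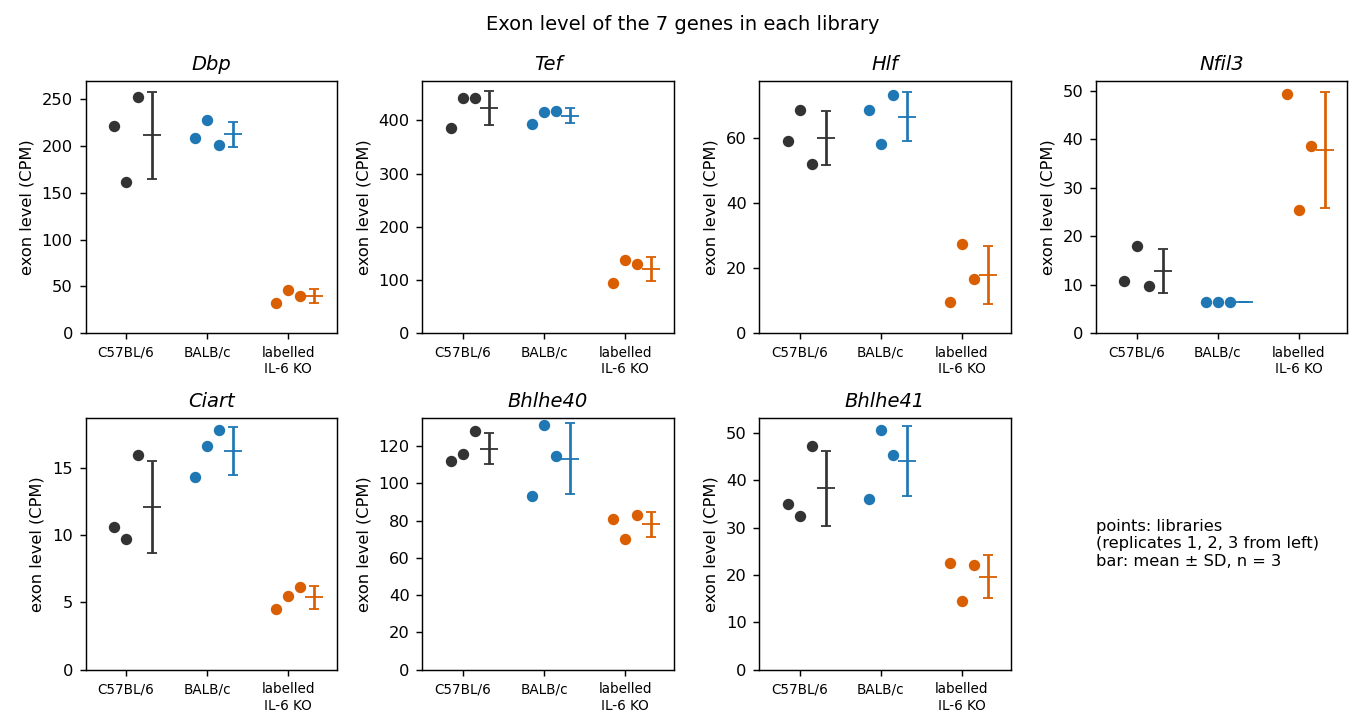
Exon level in CPM (vertical axes, from 0) of Dbp, Tef, Hlf, Nfil3, Ciart, Bhlhe40 and Bhlhe41 in the 9 libraries, with 1 point per library and the mean ± SD of each group of 3. In the KO-labelled libraries, Nfil3 lies above and the other 6 genes lie below the libraries of both strains.

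The 3 PAR activators were lower in the KO-labelled libraries than in either strain. Dbp (ENSMUSG00000059824, chromosome 7, 45705088 to 45710203, GRCm38, plus strand) is named for its binding to the albumin promoter's D site. Its exon level was 221, 161 and 253 CPM in C57BL/6, 208, 228 and 202 CPM in BALB/c, and 32.3, 46.4 and 39.9 CPM in the KO-labelled libraries. The highest of the last 3 lay far below the lowest value of either strain. In edgeR's quasi-likelihood test the log2 fold change was −2.42 ± 0.20 (SE) against C57BL/6 (adjusted p = 4.29e-04), a 5.35-fold lower level. Against BALB/c it was −2.42 ± 0.20 (adjusted p = 1.58e-04). Of 14415 genes tested, 1.57% had a lower fold change than Dbp against C57BL/6.

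Tef (ENSMUSG00000022389, chromosome 15, 81802421 to 81826861, plus strand), first described as a thyrotroph factor and expressed in many tissues, was the most read member. Its exon level was 386, 442 and 443 CPM in C57BL/6, 393, 416 and 418 CPM in BALB/c, and 94.7, 138 and 130 CPM in the KO-labelled libraries. The strains spanned a narrow common range and the third group lay wholly beneath it. Its log2 fold change was −1.81 ± 0.17 against C57BL/6 (edgeR, adjusted p = 4.29e-04) and −1.76 ± 0.17 relative to BALB/c (adjusted p = 2.67e-04).

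Hlf (ENSMUSG00000003949, chromosome 11, 90336536 to 90390895, minus strand), known from a leukemia fusion gene and as a factor of blood stem cells, was the least read PAR gene. Its exon level was 59.0, 68.8 and 52.2 CPM in C57BL/6, 68.6, 58.2 and 73.1 CPM in BALB/c, and 9.52, 27.5 and 16.6 CPM in the KO-labelled libraries. These 3 were also below all others, with replicate 2 the highest of them. The log2 fold change was −1.73 ± 0.30 against C57BL/6 (edgeR, adjusted p = 0.00258) and −1.88 ± 0.30 relative to BALB/c (adjusted p = 0.00171).

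The 3 genes summed to 134 ± 14.2 CPM per kilobase in C57BL/6 and 133 ± 4.07 in BALB/c, compared with 31.2 ± 6.51 in the KO-labelled libraries. Dbp made up 52.6 ± 6.76% of that sum in C57BL/6 and 53.4 ± 2.01% in BALB/c. In the KO-labelled libraries its share was 42.5 ± 1.72%, and Tef, at 49.3 ± 1.98%, had the larger share. The Dbp share of C57BL/6 replicate 2, 44.8%, was close to the highest in the KO-labelled libraries, 44.5%.

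Nfil3 rose where the PAR genes fell. Nfil3 (ENSMUSG00000056749, chromosome 13, 52967209 to 52981073, minus strand) is also a factor that natural killer and innate lymphoid cells need to develop. Its exon level was 10.8, 18 and 9.66 CPM in C57BL/6, 6.37, 6.32 and 6.33 CPM in BALB/c, and 49.5, 25.5 and 38.6 CPM in the KO-labelled libraries. The 3 groups did not overlap, and replicate 2 was the lowest of the last group and the highest of the C57BL/6 group. The log2 fold change was 1.55 ± 0.29 against C57BL/6 (edgeR, adjusted p = 0.00352) and 2.57 ± 0.31 relative to BALB/c (adjusted p = 5.19e-04), or 2.93-fold and 5.94-fold higher. The summed level of 7 natural killer and innate lymphoid markers was 123 to 174 CPM in the KO-labelled libraries, 126 to 182 CPM in C57BL/6 and 122 to 141 CPM in BALB/c. Of the 3 markers that could be tested, 0 were called against C57BL/6 and 1 was called lower against BALB/c. The 7 markers were Ncr1, Klrb1c, Eomes, Gzma, Prf1, Gata3 and Il7r, and their sum does not show which of them carried it. The part of such cells in the Nfil3 change was not tested.

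The balance of Dbp to Nfil3, taken as the ratio of their CPM per kilobase, was 13.9, 6.05 and 17.7 in C57BL/6 and 22.2, 24.4 and 21.6 in BALB/c. It was 0.442, 1.23 and 0.699 in the KO-labelled libraries. Dbp was thus above Nfil3 in all 6 libraries of the strains, and below it in replicates 1 and 3 of the KO-labelled libraries. Inside 2 of the groups the libraries with lower Dbp had higher Nfil3. C57BL/6 replicate 2 had the lowest Dbp and the highest Nfil3 of its strain, and KO-labelled replicate 2 had the highest Dbp and the lowest Nfil3 of its group. After the group means were subtracted, log2 levels of Dbp and Nfil3 had r = −0.95 over the 9 libraries, a description of points that also share depth and tissue composition. The other PAR genes had weaker values with Nfil3, −0.48 for Tef and −0.49 for Hlf.

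**Figure D3:**
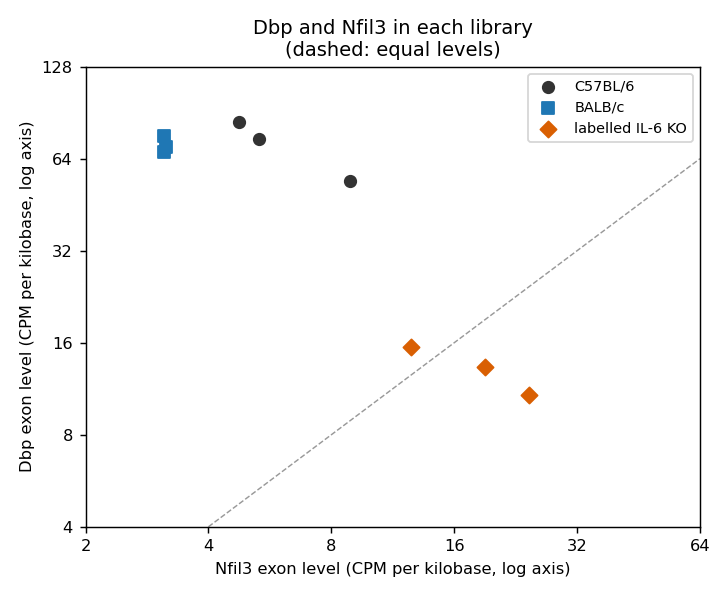
Exon level of Dbp (vertical, log axis) against Nfil3 (horizontal, log axis), both in CPM per kilobase, with 1 point per library and a dashed line of equal levels. The BALB/c libraries lie at the upper left, the KO-labelled libraries at the lower right, and C57BL/6 replicate 2 is the strain library nearest to them.

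The 3 clock repressors were also lower in the KO-labelled libraries than in either strain. Ciart (ENSMUSG00000038550, chromosome 3, 95878503 to 95882251, minus strand), which inhibits the Clock and Arntl complex, stood at 10.6, 9.69 and 16.0 CPM in C57BL/6, 14.3, 16.6 and 17.8 CPM in BALB/c, and 4.50, 5.50 and 6.16 CPM in the KO-labelled libraries. The last group lay below both strains, whose values overlapped. Its log2 fold change was −1.15 ± 0.25 against C57BL/6 (edgeR, adjusted p = 0.00674) and −1.58 ± 0.25 relative to BALB/c (adjusted p = 0.00149). Only 34.6% of its exon reads were placed uniquely by the authors' counting, against 94.2% or more for each other member but Dbp. With unique reads alone the values were −1.36 ± 0.40 (edgeR, adjusted p = 0.025) and −1.46 ± 0.39 (adjusted p = 0.0175). These rest on few reads, 5, 5 and 15 in the KO-labelled libraries. The counts were 28, 27 and 32 in C57BL/6 and 32, 33 and 28 in BALB/c.

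Bhlhe40 (ENSMUSG00000030103, chromosome 6, 108660629 to 108666925, plus strand), a helix-loop-helix repressor that competes for E-boxes and also responds to hypoxia and cytokines, had the smallest change. It stood at 112, 116 and 128 CPM in C57BL/6, 93.1, 131 and 115 CPM in BALB/c, and 80.9, 70.2 and 82.8 CPM in the KO-labelled libraries. The gap to the strains was small, with 82.8 CPM as the highest value of the one and 93.1 CPM as the lowest of the others. The log2 fold change was −0.60 ± 0.15 against C57BL/6 (edgeR, adjusted p = 0.012) and −0.54 ± 0.15 relative to BALB/c (adjusted p = 0.0195). With BALB/c replicate 2 left out, the call against BALB/c did not hold (edgeR, adjusted p = 0.0646), nor did it with KO-labelled replicate 3 left out (adjusted p = 0.0507), within a range of 0.0042 to 0.0646 over its alternatives.

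Its paralog Bhlhe41 (ENSMUSG00000030256, chromosome 6, 145858243 to 145865558, minus strand), known for variants that shorten sleep, stood at 35.1, 32.5 and 47.4 CPM in C57BL/6 and 36.0, 50.6 and 45.4 CPM in BALB/c. In the KO-labelled libraries it stood at 22.5, 14.5 and 22.1 CPM, below both strains. The log2 fold change was −0.96 ± 0.22 against C57BL/6 (edgeR, adjusted p = 0.00953) and −1.16 ± 0.22 relative to BALB/c (adjusted p = 0.00394). With group means subtracted, Bhlhe40 and Bhlhe41 had r = 0.86 over the 9 libraries, against r = 0.06 for Bhlhe41 and Dbp, again as a description.

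In all, 7 of 7 members were called against C57BL/6 in the KO-labelled libraries, 6 lower and 1 higher, beside 35.2% of all genes tested (16.0% lower and 19.2% higher). Against BALB/c 7 of 7 were called, also 6 lower and 1 higher, beside 37.3% of all genes (17.4% lower and 19.9% higher). The member median of the log2 fold change was −1.15 against C57BL/6 and −1.58 against BALB/c, and the median over all genes was 0.01 in both. Both comparisons use the same 3 libraries labelled IL-6 KO. The groups did not overlap for 7 of 7 members in either comparison, which held for 47.5% and 50.7% of all genes. Of all genes called, 54.6% were higher against C57BL/6 and 53.4% against BALB/c. With scaling to library size alone these shares were 67.8% and 60.9%, the median of all genes against C57BL/6 was 0.15, and the 7 members kept their directions and calls.

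**Figure D4:**
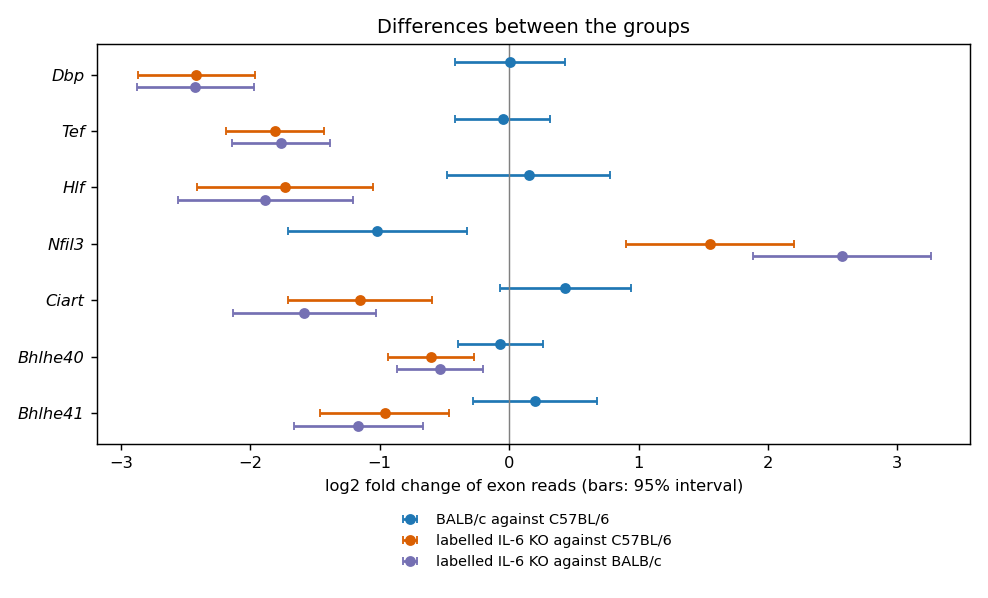
Log2 fold change of exon reads (horizontal axis) of the 7 genes in 3 comparisons, with 95% intervals from edgeR's fit. Against both strains the intervals of the KO-labelled libraries exclude 0 for each gene, and between the strains the interval excludes 0 for Nfil3 alone, which was not called after adjustment.

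Markers of other cell types moved with these changes. Their counts stand beside 35.2% of all genes called against C57BL/6 (16.0% lower) and 37.3% against BALB/c (17.4% lower). Of the 12 muscle markers, 12 were called lower against C57BL/6 and 11 against BALB/c in the KO-labelled libraries, and none of the markers was at 0 in a group. The muscle sum also differed between strain libraries. In C57BL/6 replicates 1, 2 and 3 it was 74156, 60066 and 107140 CPM, with Dbp at 221, 161 and 253 CPM. Tef stood at 386, 442 and 443 CPM in them. In BALB/c replicates 1, 2 and 3 it was 28713, 60039 and 57052 CPM, with Dbp at 208, 228 and 202 CPM. Tef stood at 393, 416 and 418 CPM in these. Each of these muscle sums was above those of the KO-labelled libraries. Of the 11 hair matrix and shaft markers, 11 were called higher against each strain, with Krt33b at 0 reads in BALB/c. In KO-labelled replicates 1, 2 and 3 the hair sum was 35207, 9092 and 26349 CPM. Replicate 2, which had the highest Dbp and the lowest Nfil3 of its group, thus also had the lowest hair sum. It had the lowest proliferation sum as well (545, 208 and 538 CPM in replicates 1, 2 and 3), and the highest suprabasal keratinocyte sum (3465, 18541 and 6524 CPM). In the same order, melanocyte sums were 713, 63.9 and 811 CPM and leukocyte sums 315, 1031 and 483 CPM. Fibroblast sums were 4987, 16168 and 11114 CPM, and basal keratinocyte sums 4815, 8257 and 4747 CPM. Adipocyte sums were 1378, 2691 and 839 CPM, and glucocorticoid response sums 435, 730 and 448 CPM. Replicate 2 thus stood apart in many lists at once. Without that replicate 7 of 7 members were called against each strain, with Dbp at −2.55 ± 0.22 and Nfil3 at 1.77 ± 0.25 against C57BL/6 (edgeR, adjusted p = 6.43e-05 and 7.73e-04). Of 6 endothelial markers 5 were lower against C57BL/6 and 0 against BALB/c, with sums of 129 to 160 CPM against 265 to 414 CPM and 103 to 240 CPM. Of 6 proliferation genes 6 were higher against each strain, with sums of 208 to 545 CPM against 47.9 to 72.5 CPM in C57BL/6, and so were 5 of 5 melanocyte markers. Of 6 fibroblast markers edgeR called 0, and of 8 leukocyte markers it called 1, lower, against each strain. Of 8 adipocyte markers 4 were lower against BALB/c and 0 against C57BL/6, with sums of 839 to 2691 CPM against 2474 to 9523 CPM in BALB/c and 2575 to 4029 CPM in C57BL/6. Of 6 basal keratinocyte markers 2 were lower against C57BL/6 and 0 were called against BALB/c. Of 6 suprabasal markers 2 were higher against C57BL/6, and 1 was higher and 1 lower against BALB/c. The part of hair, muscle, fat, vessel, pigment, epidermal and dividing cell content in the changes of the 7 genes was not tested.

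Between the 2 wild-type strains no member passed the test. Of the 7 members edgeR called 0 between BALB/c and C57BL/6, beside 3.41% of all genes, and 1 had an unadjusted p under 0.05. DESeq2 also called 0. The log2 differences were 0.01 for Dbp (95% interval −0.42 to 0.43), −0.05 for Tef (−0.42 to 0.32), 0.15 for Hlf (−0.48 to 0.78), −0.07 for Bhlhe40 (−0.40 to 0.26), 0.20 for Bhlhe41 (−0.28 to 0.68) and 0.43 for Ciart (−0.07 to 0.94). With unique reads the value of Ciart was 0.10 (adjusted p = 0.903). The exception in size was Nfil3, whose BALB/c libraries lay below all C57BL/6 libraries, at −1.02 ± 0.31 (−1.71 to −0.33, adjusted p = 0.117). Its adjusted p was 0.0496 without KO-labelled replicate 2 and reached 0.268 over the other settings. Groups that did not overlap were found for 1 of 7 members, Nfil3, and for 30.2% of all genes, 15.6% with BALB/c lower.

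Intron reads come largely from unspliced RNA and were read as a sign of new transcription. Totals per library ran from 340002 to 607322 intron reads, so these values carry more counting error. Of the 7 members, 5 had enough to be tested among 10378 genes, and Nfil3 and Bhlhe41 did not.

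Dbp had 146, 115 and 130 intron reads in C57BL/6 and 137, 140 and 119 in BALB/c, while the KO-labelled libraries had 7, 33 and 24. Tef had 401, 417 and 328, then 507, 309 and 315, then 50, 104 and 82. For both genes the last group lay below the others after scaling. The intron log2 fold change of Dbp was −2.43 ± 0.33 against C57BL/6 (edgeR, adjusted p = 1.02e-04) and −2.29 ± 0.33 relative to BALB/c (adjusted p = 1.31e-04). That of Tef was −2.08 ± 0.24 (adjusted p = 2.90e-05) and −1.89 ± 0.24 (adjusted p = 4.78e-05).

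Hlf had 23, 29 and 9 intron reads in C57BL/6 and 22, 12 and 23 in BALB/c, while the KO-labelled libraries had 1, 6 and 3, and its log2 fold change was −2.33 ± 0.52 against C57BL/6 (edgeR, adjusted p = 0.00471). Ciart had 14, 14 and 16, then 17, 28 and 11, then 2, 2 and 6, with −1.90 ± 0.52 against C57BL/6 (adjusted p = 0.0161). The Ciart call was lost without C57BL/6 replicate 3 (adjusted p = 0.0594) or KO-labelled replicate 1 (adjusted p = 0.0581). Against BALB/c both were called, at −2.12 ± 0.53 and −2.10 ± 0.51 (adjusted p = 0.00895 and 0.00776).

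Bhlhe40 had 9, 25 and 14 intron reads in C57BL/6 and 17, 16 and 9 in BALB/c, while the KO-labelled libraries had 7, 19 and 15. Its groups overlapped, and its intron log2 fold change was −0.01 ± 0.39 against C57BL/6 (95% interval −0.85 to 0.83) and 0.32 ± 0.40 against BALB/c (−0.53 to 1.17). Neither was called. Nfil3 had 5, 10 and 4 intron reads in C57BL/6 and 6, 2 and 1 in BALB/c, while the KO-labelled libraries had 9, 7 and 21. Bhlhe41 had 8, 9 and 13, then 3, 9 and 7, then 1, 1 and 4. Without a filter on low counts, Nfil3 introns were at 2.38 ± 0.57 against BALB/c (edgeR, adjusted p = 4.87e-04) and 1.17 ± 0.51 against C57BL/6 (adjusted p = 0.111) in the KO-labelled libraries. Bhlhe41 introns were at −2.07 ± 0.66 with C57BL/6 as reference (adjusted p = 0.015) and −1.27 ± 0.70 with BALB/c (adjusted p = 0.263).

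By intron reads, 4 of 5 tested members were called lower against each strain, beside 23.4% of all genes called in either comparison (11.4% lower against C57BL/6 and 12.2% against BALB/c). The intron levels of these 4 did not overlap between groups, as for 38.8% and 39.8% of all genes. Hlf and Ciart had at most 6 intron reads in any KO-labelled library and passed the filter through the strain libraries, where they were higher. Nfil3, higher by exon reads in the KO-labelled libraries, did not pass it. The tally of lower calls and its lack of overlap are thus partly set by the filter. Between BALB/c and C57BL/6 edgeR called 0 of 5, beside 6.47% of genes, and 0 of 5 had groups that did not overlap, beside 26.8% of genes. There were 0 at an unadjusted p under 0.05, and DESeq2 also called 0.

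**Figure D5:**
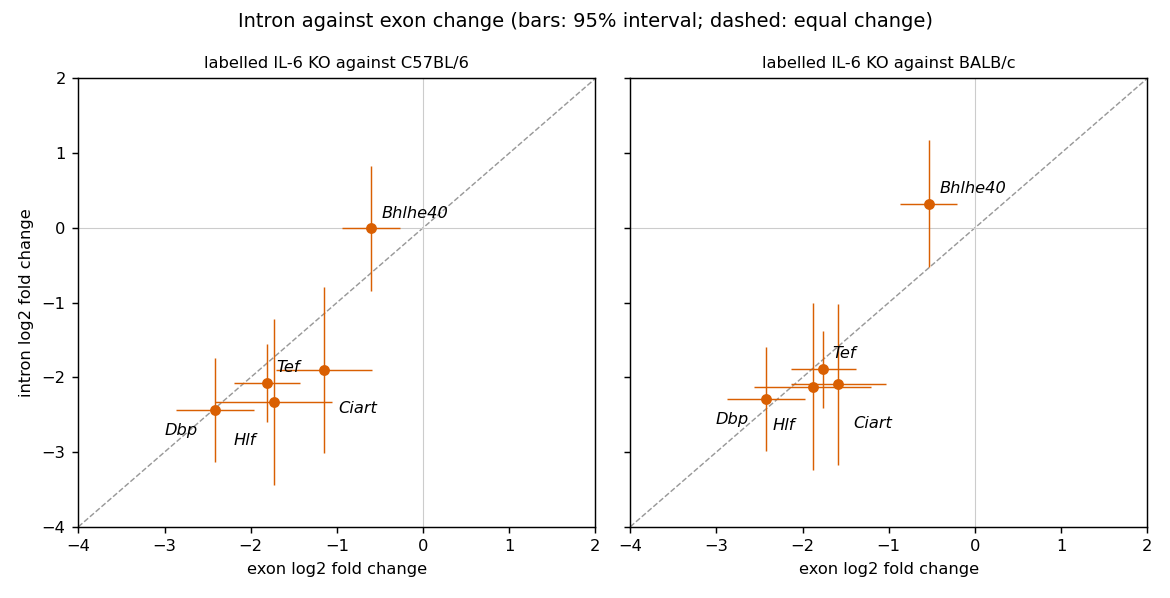
Intron log2 fold change (vertical) against exon log2 fold change (horizontal) of the 5 members tested on both, in the KO-labelled libraries against C57BL/6 (left) and BALB/c (right), with 95% intervals. Dbp, Tef, Hlf and Ciart fall at the lower left and Bhlhe40 lies near 0 on the intron axis, and no member's distance from the line of equal change passed the test.

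Whether the intron change differed from the exon change was tested in 1 model over both kinds of reads. Of the 5 members edgeR called 0 in any of the 3 comparisons, beside 6.11% of 9760 genes for the KO-labelled libraries against C57BL/6, 9.05% against BALB/c and 4.70% between the strains. For Dbp the intron change minus the exon change was −0.05 ± 0.26 against C57BL/6 (95% interval −0.58 to 0.48), and for Tef it was −0.28 ± 0.20 (−0.70 to 0.13). The intervals of Hlf (−1.62 to 0.34) and Ciart (−1.95 to 0.30) were wide. The largest difference was that of Bhlhe40 against BALB/c, 0.85 ± 0.37 (0.10 to 1.59, adjusted p = 0.15), the 1 value with an unadjusted p under 0.05.

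Dbp shares 539 exon bases with Sphk2, a sphingosine kinase gene on the other strand, and 76.6% of its exon reads were unique. Sphk2 had a log2 fold change of −0.32 ± 0.13 against C57BL/6 (edgeR, adjusted p = 0.0783) in the KO-labelled libraries. With unique reads alone the Dbp exon change was −2.40 ± 0.20 with C57BL/6 as reference (edgeR, adjusted p = 3.49e-04) and −2.34 ± 0.20 with BALB/c (adjusted p = 1.75e-04). Tef, Ciart, Bhlhe40 and Bhlhe41 each overlap a noncoding or unclassified gene on the opposite strand, none of which had more than 14 exon reads in a library. Whether the counting used strand is not given in the sources used here.

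Other genes of the clock were read from a list of 20, of which 18 could be tested. Of all genes tested, 35.2% were called against C57BL/6 (16.0% lower and 19.2% higher). Against BALB/c the share was 37.3% (17.4% lower and 19.9% higher), and between the strains it was 3.41%. The counts of this and the following lists are to be read beside these shares. In the KO-labelled libraries against C57BL/6, 2 were called higher and 8 lower, with a list median of −0.57. Against BALB/c 3 were higher and 8 lower, with a median of −0.49, and between the strains edgeR called 0 (median −0.18). The period gene Per3 was at 29.7 ± 2.68 CPM in the KO-labelled libraries, against 99.2 ± 6.63 CPM in C57BL/6 and 128 ± 16.4 CPM in BALB/c, a log2 change of −1.74 against C57BL/6 (edgeR, adjusted p = 4.20e-04). Cryptochrome gene Cry2 fell by 1.47 on the log2 scale (adjusted p = 4.29e-04). Nr1d2, a Rev-erb repressor of Nfil3, fell by 0.93 (adjusted p = 0.0105). Its relative Nr1d1 and the activator gene Arntl, named here for their roles after their values were seen, were at −1.68 and 0.69 (adjusted p = 0.00445 and 0.0496). Clock, the other activator gene, was at 0.002 and was not called (edgeR, adjusted p = 0.996). The listed gene Csnk1e was at 1.18 (adjusted p = 0.00179). These 2 were also named after their values were seen.

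Of 8 further clock-driven outputs, 2 were called higher and 4 lower against each strain. Usp2, a ubiquitin protease, fell by 1.19 on the log2 scale against C57BL/6 (edgeR, adjusted p = 0.00148), and Nampt, the enzyme that limits NAD salvage, fell by 0.80 (adjusted p = 0.00217). The gene Noct rose by 1.42 (adjusted p = 0.00788) and the cell cycle inhibitor gene Cdkn1a by 0.62 (adjusted p = 0.0318). Among 11 genes described as targets of the PAR factors or Nfil3, mostly in liver and kidney, 6 could be tested. Of these 4 were lower against C57BL/6 and 5 against BALB/c, and 0 were higher in either. Pdxk, which makes active vitamin B6, was at 51.9 ± 9.26 CPM in C57BL/6 and 24.4 ± 4.54 in the KO-labelled libraries (−1.09, adjusted p = 0.00236). Alas1, the first enzyme of heme synthesis, was at 123 ± 34.7 and 50.7 ± 5.02 CPM (−1.27, adjusted p = 0.0029). The drug transporter gene Abcb1a fell by 1.70 and Alb, the albumin gene, by 1.72, the last from 2.54 ± 0.469 CPM. Between the strains edgeR called 0 of 6 in this list and 0 of 8 in the list of outputs.

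In the C/EBP family, related factors that bind similar DNA, 1 of 6 tested genes was called, the stress factor gene Ddit3, lower by 0.89 on the log2 scale against C57BL/6 (edgeR, adjusted p = 0.00925). Of 12 immediate early genes 6 were higher and 1 lower against C57BL/6 (median 0.69), and 5 were higher and 1 lower against BALB/c (median 0.62). Against C57BL/6 Junb rose by 1.57 and Egr1 by 1.95 (adjusted p = 6.33e-04 and 0.00136). Ier2 rose by 0.78 and Zfp36 by 0.89 (adjusted p = 0.00323 and 0.00422), and the summed level of the 12 was 639 to 998 CPM in the KO-labelled libraries against 396 to 500 CPM in C57BL/6. Of 8 glucocorticoid response genes 5 were lower and 0 higher against C57BL/6 (median −0.87), and 3 were lower and 0 higher against BALB/c (median −0.47). Of all genes, 35.2% were called against C57BL/6 (16.0% lower) and 37.3% against BALB/c (17.4% lower). Against C57BL/6 Klf9, which is also clock-driven, fell by 1.23, and Tsc22d3 by 0.97 (adjusted p = 0.0108 and 0.0106). Zbtb16 fell by 2.23 and Fkbp5 by 1.47 (adjusted p = 0.00718 and 0.016), and against BALB/c these 2 genes were at −1.03 and 0.10 and were not called (adjusted p = 0.123 and 0.865). Between the strains edgeR called 0 of these 8 and 0 of the 12 immediate early genes. The part of these 2 groups of genes in the members' changes was not tested.

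The genes most like Dbp across the 9 libraries were sought among 13569 tested genes by Pearson's r of log2 CPM. The 5 highest were Stradb (r = 0.99), Aamdc, Mag, Man2a2 and Fn3k, all at 0.99 and with r from 0.81 to 0.93 once group means were subtracted. Man2a2, a Golgi mannosidase gene, had the highest of these at 0.93. The 5 lowest were Sfn, S100a7a, Fabp5, Irx4 and Utp20, with r from −0.995 to −0.989. Sfn, the epithelial 14-3-3 sigma gene, had r = −0.98 with group means subtracted. Its level was 1300 ± 286 CPM in the KO-labelled libraries, against 401 ± 97.3 CPM in C57BL/6 and 387 ± 23.2 CPM in BALB/c. The genes were picked by r over the same 9 libraries, so r with group means subtracted is no separate check. The genes most like Nfil3 were Midn, Ctnnd1, Gli2, Tgif1 and Abhd2, each at r = 0.99. The group differences weigh on all of these values, and 269 of the genes had r over 0.95 with Dbp, 401 had r under −0.95 with Dbp and 232 had r over 0.95 with Nfil3.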

How the data were processed

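RNA from mouse skin was read in 9 libraries, grouped by the strain and genotype labels. Each deposited table gives counts of total and unique exon reads and intron reads per gene on GRCm38, per the submitters' processing notes. No source used here names the aligner or the counting rules. The C57BL/6 replicate 1 table is followed by copies of replicates 2 and 3, and its first table was used. Other columns in the deposited tables (such as exon length) were used for length only.

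Total exon and intron counts were fitted separately in edgeR 4.0.16 (R 4.3.3), with TMM scaling, a filter on low counts (minimum 10, total 15), the quasi-likelihood F test over all 9 libraries and Benjamini-Hochberg adjustment at 0.05 over all genes. The intron change was set against the exon change by an interaction term. An SE is the log2 fold change divided by the square root of F. Alternatives were RLE and library-size scaling, no filter, a robust fit, only the compared groups, a replicate block, unique reads, DESeq2 1.42.0 and leaving out each library. The fits were tested on simulated data. Same-numbered replicates did not pair (9 pairs, r from −0.18 to 0.06).

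All 7 genes are named. From each pathway list up to 4 genes called in any comparison are named, by smallest p-value (1 gene that this rule names is not reported here), and the genes most like Dbp and Nfil3 by r, leaving out predicted genes, clone names and pseudogenes. The genes and lists were chosen with earlier results of these data known.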

Additional observations from a re-analysis of the deposited data

How the results depend on the processing

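All 7 exon calls against C57BL/6 in the KO-labelled libraries held under every alternative run, with each library left out in turn included. Against BALB/c 6 to 7 held, Bhlhe40 being the exception. Members called between the strains numbered 0 to 1, the 1 being Nfil3. By introns, 3 to 5 members were called against C57BL/6, 4 to 5 against BALB/c and 0 between the strains. The count of all genes called by exon reads between the strains was 491, against 1033 with DESeq2 and 255 with the replicate block. By introns it was 671, and 1302 without a filter. The replicate block changed no call of a member. Leaving out 1 library gave 167 to 977, 3238 to 6806 and 3310 to 7044 genes called by exon reads (between the strains, then against C57BL/6 and BALB/c). It gave 381 to 985, 1574 to 3220 and 1522 to 3213 by introns, and 317 to 475, 306 to 673 and 493 to 983 for intron against exon change.

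The values that changed sign were all uncalled, and the cause was not tested. Between the strains, Tef exons were at 0.016 with library size alone, Dbp exons at −0.058 with unique reads, and Dbp introns at 0.017 with exon library sizes. Bhlhe40 introns against C57BL/6 were at 0.0099 with RLE, 0.0054 with DESeq2 and 0.23 with exon library sizes. With exon library sizes for both, the intron against exon difference was 0.0052 for Tef between the strains and 0.20 for Dbp against C57BL/6. With 1 library left out, between the strains, Dbp exons ran from −0.16 to 0.15, Bhlhe40 exons from −0.18 to 0.063, Hlf introns from −0.49 to 0.022 and Ciart introns from −0.28 to 0.38. Bhlhe40 introns against C57BL/6 ran from −0.31 to 0.33. The intron against exon difference ran from −0.57 to 0.11 for Bhlhe40 between the strains, from −0.35 to 0.19 for Dbp against C57BL/6, from −0.16 to 0.35 for Dbp against BALB/c and from −0.22 to 0.037 for Tef against BALB/c. Intron reads of Nfil3 and Bhlhe41 fell under the filter on low counts.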
